A study of Caenorhabditis elegans with 4 samples.

Results

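Fatty acid desaturases and elongases were followed in *C. elegans* embryos that were mutant for *meg-1* and depleted of *meg-2* by RNAi, genes that encode germ granule proteins. The set held the 7 desaturase genes *fat-1* to *fat-7* and the elongase genes *elo-1*, *elo-2* and *elo-5*. It was chosen by gene name, and all 10 were found among the 42048 genes of the table. Of these, 9 had a mean of at least 1 fpm over the libraries and were tested. The remaining gene, *fat-7*, was under that limit. Fpm is a gene's reads scaled by the size factor of the library and by the geometric mean of all library sizes, which is common to the libraries.

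The mutant embryos carried the *meg-1(vr10)* allele and came from mothers fed *meg-2* RNAi bacteria, and are called *meg-1 meg-2*. The controls, called wild type, were N2 embryos whose mothers ate bacteria carrying the empty vector L4440. Each genotype had 2 libraries of total RNA from whole embryos, labelled as biological replicates. The 2 genotypes differ both in the *meg-1* allele and in the *meg-2* RNAi, so the share of each gene in a difference cannot be told apart. The embryos were bleached out of adults in bulk, so a library mixes developmental stages. RNAi lowers *meg-2* RNA and does not remove the gene.

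The libraries had from 20662429 to 26017429 reads on genes. Within each genotype they are named A and B, and were not matched to the labelled replicates. The targeted genes were low where the labels say so. *meg-1* had 0.841 and 0.896 fpm in *meg-1 meg-2*, against 73.5 and 92.9 fpm in wild type, and *meg-2* had 6.24 and 8.56 fpm in *meg-1 meg-2*, against 19.6 and 26.0 fpm in wild type. The wild-type pair differed more than the *meg-1 meg-2* pair. The SD of the log2 difference within a genotype, over the more abundant tested genes, was 0.09 in *meg-1 meg-2* and 0.24 in wild type. A gene was called with a difference of at least 1.5-fold and an adjusted *P* below 0.05 in limma, over 12734 tested genes. By this rule 5.4% of tested genes were called higher in *meg-1 meg-2* (687 genes) and 2.88% lower (367 genes). With TMM scaling in place of the deposited scaling, the calls were 403 higher and 328 lower. The median log2 fold change of all tested genes was 0.01, and it was −0.06 with TMM scaling. With 2 libraries against 2, a two-sided exact permutation test of a single gene cannot give a *P* under 0.333, so every adjusted *P* rests on a spread estimated over all genes.

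In animals a desaturase adds a double bond to a fatty acid that is already made, and an elongase catalyses the first step of a cycle that lengthens it. *C. elegans* makes its polyunsaturated fatty acids without a dietary source. The delta-9 desaturases FAT-5, FAT-6 and FAT-7 make monounsaturated fatty acids, FAT-2 (delta-12) adds the next bond, FAT-3 (delta-6), ELO-1 and FAT-4 (delta-5) build the long chains, and FAT-1 turns omega-6 into omega-3 fatty acids. These lipids enter the membranes and stores of the embryo largely through the mother, with yolk taken up by oocytes.

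Of the 9 tested genes, *fat-1* was called higher and *fat-5* was called lower in *meg-1 meg-2* embryos, and 7 were not called. A single call in each direction is too few to set apart from the background of 5.4% and 2.88%. The median log2 fold change of the 9 was −0.26, with 3 values above 0 and 6 below. Both *meg-1 meg-2* libraries lay above both wild-type libraries for 3 of the 9 (*fat-1*, *fat-4*, *elo-1*), as for 35.4% of all tested genes. Both lay below for 5 of the 9 (*fat-2*, *fat-3*, *fat-5*, *fat-6*, *elo-2*), as for 30.1% of all tested genes. In libraries of whole embryos, fewer cells of a type and less RNA per cell cannot be told apart.

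**Figure D1:**
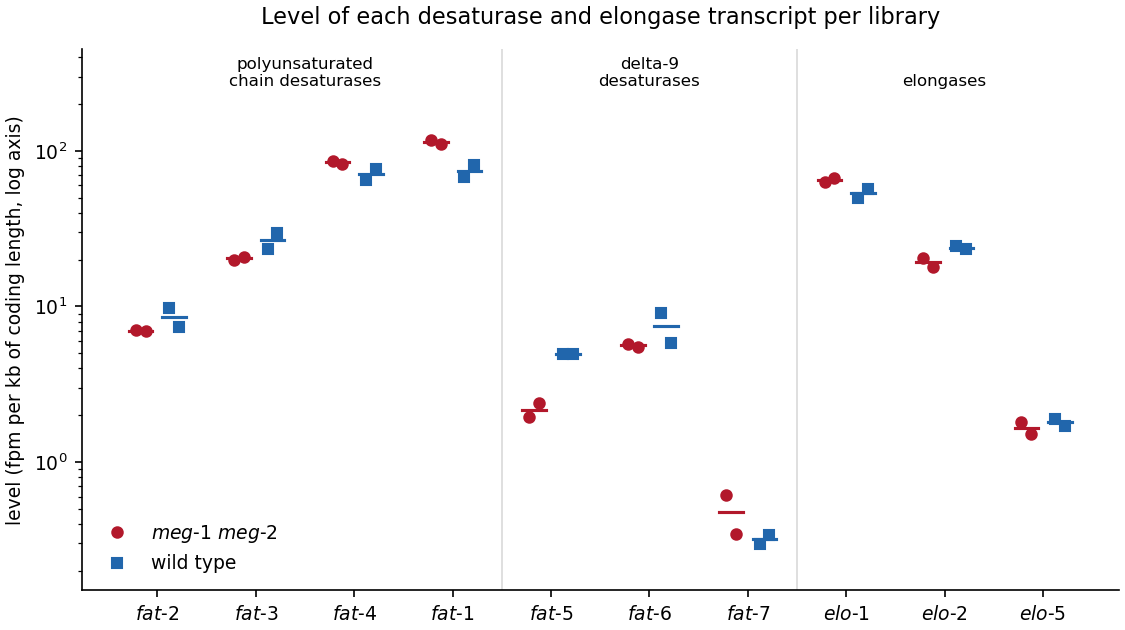
Level of each gene in each library, in fpm per kb of coding length on a log axis, with *meg-1 meg-2* libraries as red circles left of wild-type libraries as blue squares and the mean of each genotype as a line. *fat-1*, *fat-4* and *elo-1* sit highest in both genotypes, and *fat-1* (114 against 74.4 fpm per kb) and *fat-5* (2.16 against 4.96 fpm per kb) are the pairs that were called.

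Levels per kb of coding length allow the genes to be compared with each other. *fat-1* was the most abundant in both genotypes, at 114±4.52 fpm per kb in *meg-1 meg-2* and 74.4±9.29 fpm per kb in wild type (SD, *n*=2 each). This level was above that of 90.1% of tested protein-coding genes in *meg-1 meg-2* and of 84.2% in wild type. *fat-4* followed with 84.3±2.45 and 70.6±8.12 fpm per kb, and *elo-1* with 64.6±2.74 and 53.4±4.73 fpm per kb, in *meg-1 meg-2* and in wild type. In wild type the ranges of *fat-1* and *fat-4* overlapped, so their order is not resolved there. In *meg-1 meg-2* both libraries of *fat-1* were above both of *fat-4*.

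The next genes were *fat-3*, with 20.4±0.50 fpm per kb in *meg-1 meg-2* and 26.6±4.31 in wild type, and *elo-2*, with 19.2±1.69 in *meg-1 meg-2* and 23.9±0.95 in wild type. These neighbours overlapped in both genotypes. *fat-2* (6.995±0.12 and 8.56±1.74 fpm per kb) and *fat-6* (5.64±0.18 and 7.48±2.34 fpm per kb) came after them, in *meg-1 meg-2* and in wild type, and overlapped in wild type only. The lowest were *fat-5* (2.16±0.31 and 4.96±0.03 fpm per kb), *elo-5* (1.65±0.21 and 1.796±0.15 fpm per kb) and *fat-7* (0.48±0.19 and 0.32±0.03 fpm per kb), in the same order of genotypes. The order of the means was the same in both genotypes.

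The polyunsaturated chain begins with *fat-2*, which makes linoleic acid from oleic acid. *fat-2* lies on chromosome IV of WBcel235, from 13323873 to 13326395 on the plus strand. It had 181 and 157 reads in *meg-1 meg-2*, against 291 and 216 reads in wild type, or 8.01 and 7.82 fpm against 11.1 and 8.28 fpm. The groups did not overlap, but wild-type library B was close to the *meg-1 meg-2* libraries. The log2 fold change was −0.26 (95% interval −0.65 to 0.13, limma adjusted *P*=0.347), and without wild-type library A it was −0.06.

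*fat-3*, the delta-6 desaturase at the branch into long polyunsaturated fatty acids, lies on chromosome IV from 9803023 to 9806119 on the plus strand. It had 26.7 and 27.6 fpm in *meg-1 meg-2*, against 31.3 and 39.4 fpm in wild type. The *meg-1 meg-2* values were both lower, and the gap between the wild-type libraries was wider than that between the nearest libraries of different genotype. The log2 fold change was −0.37 (95% interval −0.67 to −0.06, limma unadjusted *P*=0.0195, adjusted *P*=0.0755). DESeq2 gave −0.41 with an adjusted *P* of 0.0447, which is also under the 1.5-fold limit.

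*fat-4*, the delta-5 desaturase, ends 796 bp before *fat-3* begins, from 9799429 to 9802226 on the same strand. It had 115.7 and 111.0 fpm in *meg-1 meg-2*, against 87.2 and 102.6 fpm in wild type. Both *meg-1 meg-2* libraries were higher, and the log2 fold change was 0.26 (95% interval 0.00 to 0.51, limma adjusted *P*=0.133). The ratio of *fat-4* to *fat-3* per kb within a library was 4.30 and 3.98 in *meg-1 meg-2*, against 2.76 and 2.58 in wild type. The *meg-1 meg-2* mean of this ratio was 1.55 times that of wild type. The 2 genotypes could not overlap in it, since *fat-4* lay above and *fat-3* below wild type in both libraries. Their separation is therefore no further result. The smallest exact two-sided permutation *P* for such a ratio is 0.333.

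*fat-1*, the omega-3 desaturase, was higher in *meg-1 meg-2*. It lies on chromosome IV from 13315644 to 13318811 on the plus strand, and had 3208 and 2696 reads in *meg-1 meg-2*, against 2155 and 2552 reads in wild type. These are 141.9 and 134.2 fpm in *meg-1 meg-2*, against 82.0 and 97.9 fpm in wild type. All 4 comparisons of a *meg-1 meg-2* library with a wild-type library gave a higher value, by 1.37-fold to 1.73-fold. The means differed by 1.54-fold. On the log2 scale the difference was 0.62 (SE 0.13, 95% interval 0.37 to 0.87, limma adjusted *P*=0.000143).

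This value lay just past the fold limit, which is 0.585 on the log2 scale. The difference stayed above 0 under all 12 alternatives, from 0.51 to 0.62, and 8 of them gave a call. With TMM scaling it was 0.55 (limma adjusted *P*=0.0124), with quantile normalisation 0.51 (limma adjusted *P*=0.0067) and in edgeR 0.55 (adjusted *P*=0.0137), all under 1.5-fold. With no filter on low values, the limma adjusted *P* was 0.223. Leaving out *meg-1 meg-2* library A gave 0.58, leaving out *meg-1 meg-2* library B 0.66 and leaving out wild-type library A 0.49. None of these was called, and each such fit leaves 1 library in a genotype.

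*fat-1* ends 5061 bp before *fat-2* begins, on the same strand, and the annotation has 0 protein-coding genes lying within that gap. FAT-2 acts at the entry to the polyunsaturated chain and FAT-1 on several of its later products. The ratio of *fat-1* to *fat-2* per kb was 16.6 and 16.1 in *meg-1 meg-2*, against 6.93 and 11.1 in wild type. The wild-type libraries were widely spread in this ratio, and the *meg-1 meg-2* libraries were both above them. That position follows from *fat-1* lying above and *fat-2* below wild type in both libraries, and is no further result.

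**Figure D2:**
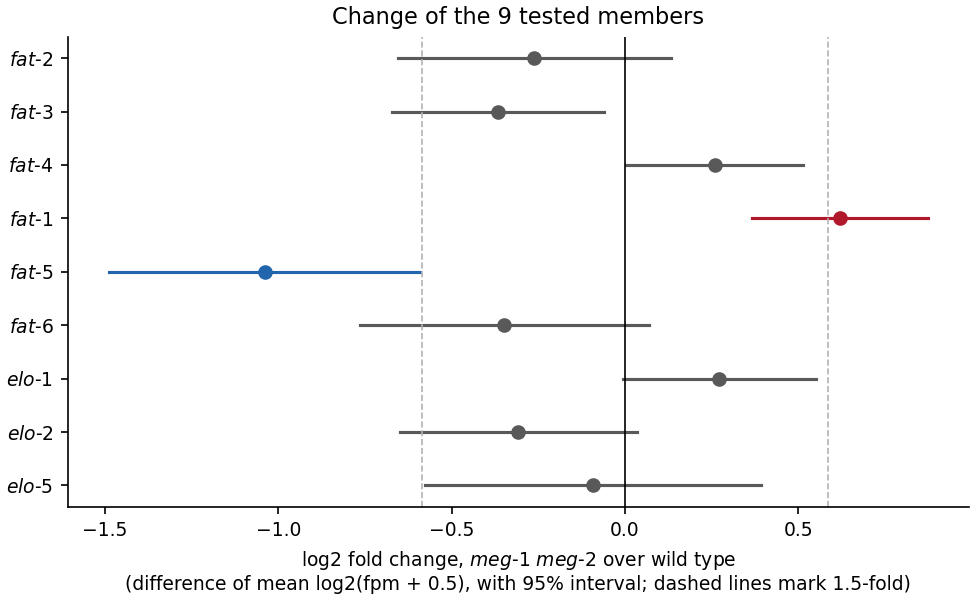
Log2 fold change (*meg-1 meg-2* relative to wild type) for the 9 tested genes, as the difference of mean log2(fpm + 0.5) with its 95% interval from limma, and dashed lines at 1.5-fold. The *fat-1* interval (0.37 to 0.87) lies above 0, the *fat-5* interval (−1.49 to −0.59) lies below 0, and the other 7 points fall between −0.37 and 0.27.

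Among the delta-9 desaturases, *fat-5* was lower in *meg-1 meg-2*. FAT-5 acts mainly on palmitic acid. The gene lies on chromosome V from 17725004 to 17726818 on the plus strand, and had 44 and 48 reads in *meg-1 meg-2*, against 131 and 129 reads in wild type. These are 1.95 and 2.39 fpm in *meg-1 meg-2*, against 4.98 and 4.95 fpm in wild type. The wild-type libraries were nearly equal, and the *meg-1 meg-2* values both lay below them. The mean of *meg-1 meg-2* was 0.437 of that of wild type, and counting error alone gave a 95% interval of 0.338 to 0.553 for the ratio of summed reads. The log2 fold change was −1.04 (SE 0.23, 95% interval −1.49 to −0.59, limma adjusted *P*=0.000336).

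The direction was the same under all 10 alternatives that gave *fat-5* an adjusted *P*, from −1.26 to −0.74, with a call in 8. It was not called on the FPKM scale (−0.74, limma adjusted *P*=0.0771), with no filter on low values (adjusted *P*=0.223), without *meg-1 meg-2* library A (−0.92, adjusted *P*=0.436) or without *meg-1 meg-2* library B (−1.16, adjusted *P*=0.149). At a minimum of 5 fpm it was not tested. DESeq2 gave −1.23 with an unadjusted *P* of 0.000636 and no adjusted *P*. Exons of *fat-5* and of the potassium channel gene *twk-42*, on the opposite strand, share 28 bp. *twk-42* had 31 and 31 reads in *meg-1 meg-2*, against 51 and 47 reads in wild type, and reads in the shared stretch cannot be assigned without the strand setting of the counting, which is not given in the sources used here.

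*fat-6* and *fat-7* encode stearoyl-CoA desaturases that make oleic acid. They are close paralogs, and whether reads matching both were counted for either was not tested. *fat-6* (chromosome IV, 11913692 to 11915687, minus strand) had 5.88 and 5.63 fpm in *meg-1 meg-2*, against 9.32 and 5.94 fpm in wild type. Wild-type library B was next to the *meg-1 meg-2* libraries and wild-type library A stood well above them. The log2 fold change was −0.35 (limma adjusted *P*=0.225), with −0.04 without wild-type library A and −0.65 without wild-type library B. A fit with 1 wild-type library holds no spread between wild-type libraries, so the size of these values alone is given. *fat-7* (chromosome V, 7151353 to 7153146, minus strand) had 14 and 7 reads in *meg-1 meg-2*, against 8 and 9 reads in wild type, or 0.619 and 0.348 fpm against 0.304 and 0.345 fpm. The ratio of summed reads was 1.52, with a 95% interval from counting error of 0.761 to 3.06, so a difference in *fat-7* was not detectable at this depth. *fat-5* relative to *fat-6*, per kb within a library, was 0.337 and 0.432 in *meg-1 meg-2*, against 0.544 and 0.847 in wild type.

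Of the 3 elongases, limma called 0 and gave 0 an unadjusted *P* below 0.05. edgeR and DESeq2 also called 0 (DESeq2 gave *elo-5* no adjusted *P*). The unadjusted *P* in edgeR was 0.0303 for *elo-2*, 0.0499 for *elo-1* and 0.533 for *elo-5*. *elo-1*, which lengthens the polyunsaturated chain between FAT-3 and FAT-4, lies on chromosome IV from 9526366 to 9528336 on the plus strand. It had 54.3 and 57.6 fpm in *meg-1 meg-2*, against 43.4 and 49.2 fpm in wild type. Its log2 fold change was 0.27 (95% interval −0.01 to 0.55, limma adjusted *P*=0.149). The libraries did not overlap, and the nearest pair differed by less than the gap between the wild-type libraries.

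*elo-2*, which lengthens palmitic acid, lies on chromosome IV from 17466062 to 17467408 on the minus strand. It had 16.9 and 14.9 fpm in *meg-1 meg-2*, against 20.3 and 19.2 fpm in wild type. Its log2 fold change was −0.31 (limma adjusted *P*=0.188). Per kb within a library, *elo-1* was 3.06 and 3.69 times *elo-2* in *meg-1 meg-2*, against 2.04 and 2.44 times in wild type. The 2 genotypes could not overlap in this ratio either, since *elo-1* lay above and *elo-2* below wild type in both libraries.

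*elo-5*, which acts in the synthesis of branched-chain fatty acids, lies on chromosome IV from 5374616 to 5377117 on the minus strand. It had 35 and 26 reads in *meg-1 meg-2*, against 43 and 38 reads in wild type, or 1.55 and 1.29 fpm against 1.64 and 1.46 fpm. The libraries overlapped, and the log2 fold change was −0.09 (95% interval −0.58 to 0.39, limma adjusted *P*=0.810). The gene shares 162 exonic bp with *F41H10.3* on the opposite strand, which had 3459 and 3098 reads in *meg-1 meg-2*, against 3264 and 3464 reads in wild type, far more than *elo-5* itself. Whether reads of *F41H10.3* in that stretch were counted for *elo-5* depends on the strand setting, as for *fat-5*.

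**Figure D3:**
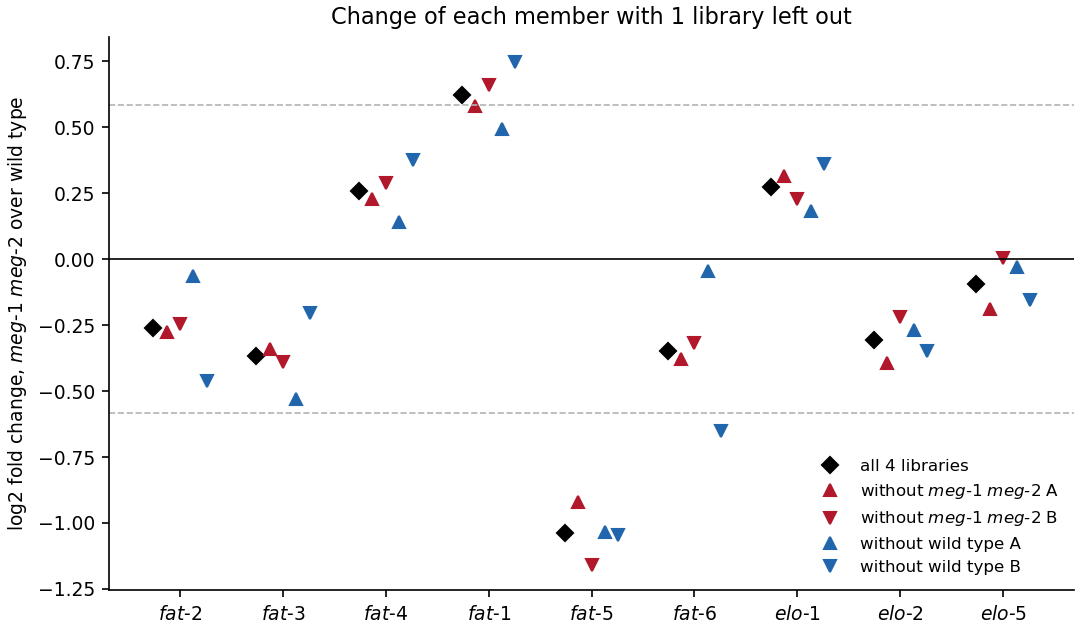
Log2 fold change of each tested gene with all 4 libraries (black diamonds) and with 1 library left out (red triangles, a *meg-1 meg-2* library, and blue triangles, a wild-type library), with dashed lines at 1.5-fold. *fat-5* stays between −1.16 and −0.92, *fat-1* runs from 0.49 to 0.75, and *fat-6* runs from −0.65 to −0.04 with the wild-type library that is left out.

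The 10 genes summed to 368.13±7.48 fpm in *meg-1 meg-2* and 310.37±26.71 fpm in wild type (SD, *n*=2 each), a ratio of 1.19. Without *fat-1* the sums were 230.06±2.02 and 220.45±15.48 fpm, a ratio of 1.04. The make-up of the set, as shares of the summed level per kb, shifted towards *fat-1*, which made up 36.3% and 35.2% in *meg-1 meg-2*, against 26.4% and 28.2% in wild type. *fat-4* and *elo-1* kept close shares, with means of 26.4% and 20.2% in *meg-1 meg-2* and of 25.9% and 19.6% in wild type. *fat-3* had a mean share of 6.38% in *meg-1 meg-2* and 9.73% in wild type, and *elo-2* of 6.02% in *meg-1 meg-2* and 8.83% in wild type. *fat-5* made up 0.678% in *meg-1 meg-2* and 1.83% in wild type. Since the shares are parts of the same sum, the higher level of *fat-1* lowers the shares of the other genes. In fpm the *meg-1 meg-2* mean was 0.768 of that of wild type for *fat-3* and 0.805 for *elo-2*, and neither was called. The shares are therefore no further result. No exact test of a share can go below a *P* of 0.333 here.

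By position, 8 of the 10 genes lie on chromosome IV and *fat-5* and *fat-7* on chromosome V. Chromosome IV held 15.9% of the tested protein-coding genes, and their median log2 fold change was 0.03. The 8 genes on IV had log2 fold changes from −0.37 (*fat-3*, not called) to 0.62 (*fat-1*).

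The rest of the lipid pathway was described with 12 lists that held 118 genes, of which 103 were tested. Over these 103 genes, 3 were called higher (background 5.4%) and 3 lower (background 2.88%). The elongases outside the set gave 4 tested genes of 6, and in all 4 the *meg-1 meg-2* values lay below the wild-type values (background 30.1%), with a median log2 fold change of −0.29. *elo-6*, which works with *elo-5* on branched-chain fatty acids, was called lower, with 25.6 and 27.2 fpm in *meg-1 meg-2*, against 41.8 and 40.0 fpm in wild type (log2 fold change −0.62, limma adjusted *P*=0.0015). *elo-6* thus had a larger difference than *elo-5*, and the difference between these 2 genes was not tested.

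In fatty acid synthesis and the other steps of elongation, 6 of 7 genes were tested and limma called 0. The 2 enzymes that make the substrate of the set were below wild type in both libraries, and are named after their values were seen. *fasn-1*, the fatty acid synthase, had 2431 and 2528 fpm in *meg-1 meg-2*, against 3461 and 3831 fpm in wild type (log2 fold change −0.55, limma adjusted *P*=0.0016). *pod-2*, the acetyl-CoA carboxylase, had 433 and 445 fpm in *meg-1 meg-2*, against 648 and 609 fpm in wild type (log2 fold change −0.52, limma adjusted *P*=0.00087). Both passed the adjusted *P* in limma, as did 7.84% of tested genes in this direction and 13.8% in the other, and missed the 1.5-fold limit. The count models put them at that limit. edgeR called *fasn-1* lower (−0.62, adjusted *P*=0.0128) and *pod-2* lower (−0.59, adjusted *P*=0.0134), and DESeq2 called *fasn-1* lower (−0.59, adjusted *P*=5.81e-07) but not *pod-2* (−0.55, adjusted *P*=1.1e-05).

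The regulators of desaturase genes were all tested, 11 of 11, and limma called 0. The Mediator subunit gene *mdt-15*, needed for expression of *fat-6* and *fat-7*, passed the adjusted *P* but not the fold limit in limma, with 111 and 115 fpm in *meg-1 meg-2*, against 165 and 169 fpm in wild type (log2 fold change −0.56, limma adjusted *P*=0.00049). It was called lower in edgeR (−0.63, adjusted *P*=0.0107) and in DESeq2 (−0.59, adjusted *P*=6.47e-06). It too is named after its value was seen. The genes for electron supply to desaturases had 3 of 4 tested and 0 called, with log2 fold changes from −0.02 to 0.25. Over the 6 lists with 0 calls in limma, which held 42 tested genes, 3 genes were higher and 4 lower at an unadjusted *P* below 0.05. Over all 12734 tested genes, 2684 were higher and 1873 lower by that limit. In the same 6 lists edgeR called 3 genes and DESeq2 called 2, all of them lower. Over all tested genes, edgeR called 343 lower and DESeq2 called 270 lower.

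The other lists gave 1 call each or none in limma. *acs-2*, a mitochondrial acyl-CoA synthetase gene, was lower, with 5.49 and 6.32 fpm in *meg-1 meg-2*, against 7.68 and 11.8 fpm in wild type (1 of 15 tested acyl-CoA synthetases). DESeq2 called *acs-2* lower (−0.75, adjusted *P*=0.0328) and edgeR did not (−0.78, adjusted *P*=0.057). In the same list *acs-1*, not called in limma, was called lower in edgeR (−0.63, adjusted *P*=0.0228) and in DESeq2 (−0.60, adjusted *P*=0.0054). *sams-1*, the S-adenosylmethionine synthetase gene that feeds phosphatidylcholine synthesis, was lower, with 45.9 and 45.8 fpm in *meg-1 meg-2*, against 77.99 and 62.0 fpm in wild type (1 of 11 tested phospholipid genes). *seip-1*, which encodes the lipid droplet protein seipin, was higher, with 53.5 and 50.8 fpm in *meg-1 meg-2*, against 30.4 and 31.5 fpm in wild type (1 of 10 tested triglyceride genes).

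The fatty acid binding protein gene *lbp-9* was higher, with 49.6 and 55.8 fpm in *meg-1 meg-2*, against 27.2 and 36.7 fpm in wild type (1 of 8 tested). In mitochondrial beta-oxidation, *ech-1.1* was higher, with 16.9 and 19.6 fpm in *meg-1 meg-2*, against 11.9 and 11.6 fpm in wild type (1 of 13 tested). DESeq2 called *ech-1.1* higher (0.60, adjusted *P*=0.0157), and edgeR put it under 1.5-fold (0.57, adjusted *P*=0.0459). Peroxisomal beta-oxidation and sphingolipid synthesis, with 10 tested genes each, and the yolk list, with 2 of 7 genes tested, had 0 calls. The median log2 fold change of the lists lay between −0.29 and 0.14, against 0.01 for all tested genes.

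**Figure D4:**
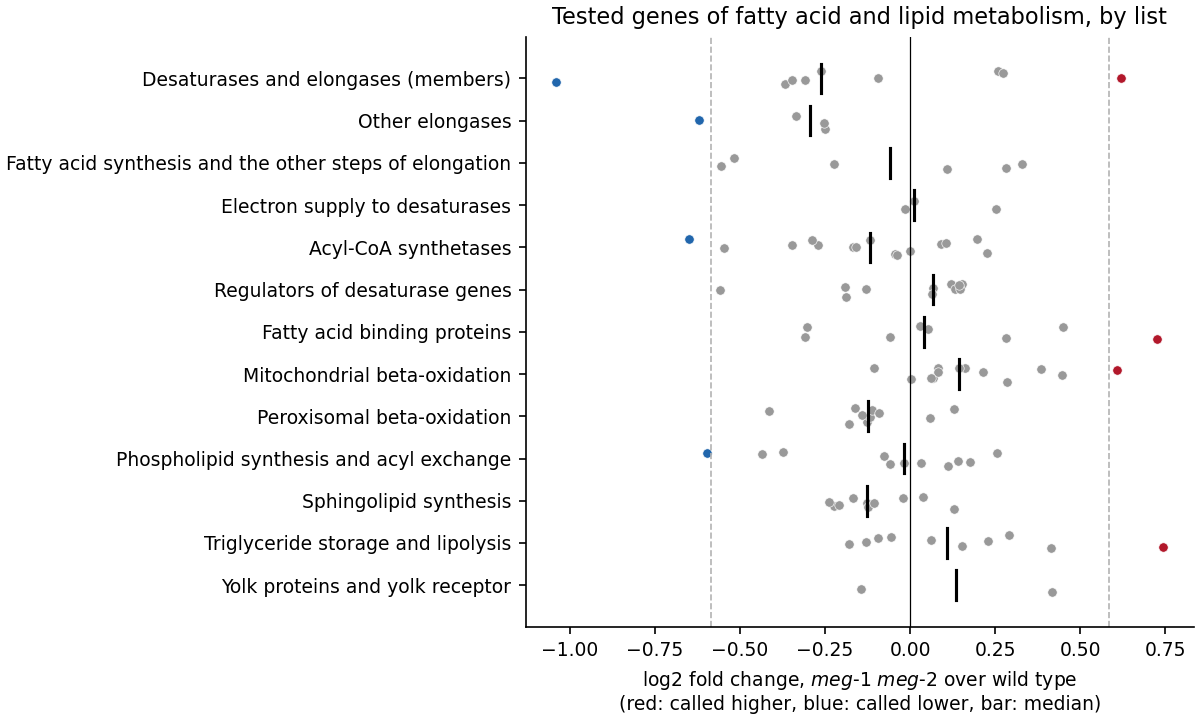
Log2 fold change (*meg-1 meg-2* relative to wild type) for every tested gene of the set and of the 12 lipid lists, 1 point per gene, with called genes in red (higher) or blue (lower), the median of each list as a bar and dashed lines at 1.5-fold. *fat-5* at −1.04 is the lowest point and *seip-1* at 0.74 the highest, and most points lie within 0.5 of 0.

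Markers of the embryo's tissues and stages moved between the genotypes too. The 12 oocyte and early embryo genes were above wild type in both *meg-1 meg-2* libraries, 12 of 12 (background 35.4%), with 4 called higher (background 5.4%), among them *oma-2*, *puf-11* and *cbd-1*. Their summed level was 1710 and 1725 fpm in *meg-1 meg-2*, against 1024 and 1302 fpm in wild type. In wild type this sum was higher in library B than in library A, as the levels of *fat-1*, *fat-3*, *fat-4*, *fat-7* and *elo-1* were. Of these genes, *fat-3* was lower in *meg-1 meg-2* than in wild type. The other genes of the set were higher in wild-type library A than in B. For 3 genes the wild-type libraries were too close to resolve their order. In A and B these were *fat-7* (8 and 9 reads), *fat-5* (131 and 129 reads) and *elo-5* (43 and 38 reads). The 6 muscle genes had 4 called lower in limma and in edgeR and 3 in DESeq2 (limma background 2.88%), among them *unc-15*, *unc-54* and *lev-11*, of which DESeq2 did not call *unc-54* (adjusted *P*=0.0825). They summed to 1725 and 1770 fpm in *meg-1 meg-2*, against 3170 and 2206 fpm in wild type.

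The intestine, where several of these desaturases are expressed in larvae and adults, was followed with 12 tested genes of 13. The early transcription factor genes *end-1* and *end-3* were called higher in limma, 2 of 12 tested (background 5.4%), and in edgeR. DESeq2 called *end-1* higher and gave *end-3* no adjusted *P*. In limma 0 were called lower, but 3 were lower at the adjusted *P* alone (background 7.84%). At an unadjusted *P* below 0.05, 4 were lower (background 1873 of 12734 tested genes). edgeR and DESeq2 called 0 lower, and the median log2 fold change was −0.24. The list summed to 662 and 674 fpm in *meg-1 meg-2*, against 947 and 673 fpm in wild type, so the sum in wild-type library B lay within the *meg-1 meg-2* range and that in library A above it. Of 5 tested epidermis genes, 0 were called in limma, edgeR or DESeq2. In limma 3 were lower at the adjusted *P* alone (background 7.84%), the same 3 as at an unadjusted *P* below 0.05. The other 2 had log2 fold changes above 0. The list summed to 1607 and 1736 fpm in *meg-1 meg-2*, against 2334 and 1989 fpm in wild type. Most of that sum was *sqt-3*, with 1211 and 1312 fpm in *meg-1 meg-2*, against 1895 and 1532 fpm in wild type. The 4 germline genes summed to 301 and 294 fpm in *meg-1 meg-2*, against 192 and 222 fpm in wild type. Of these, 1 was called higher (background 5.4%), *pgl-1*. It made up most of that sum, with 181 and 173 fpm in *meg-1 meg-2*, against 102 and 122 fpm in wild type. Sperm genes were near 0, with 3 of 6 at 0 in all libraries. The part of these tissues and stages in the values of *fat-1*, *fat-5* and the other genes was not tested.

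**Figure D5:**
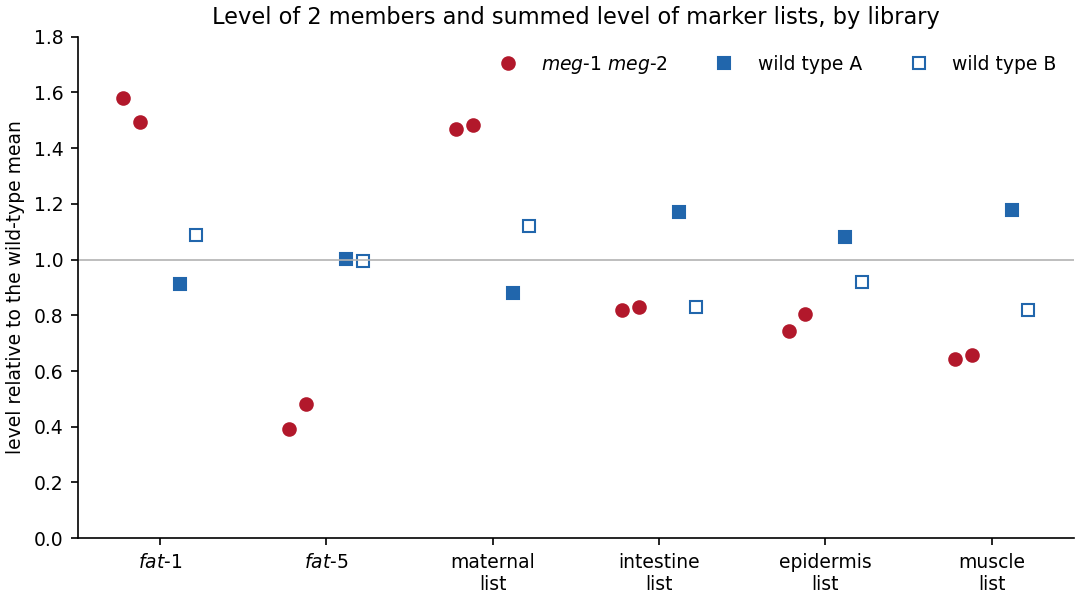
Level of *fat-1* and *fat-5* and summed level of 4 marker lists in each library, relative to the mean of the wild-type libraries (linear axis from 0), with *meg-1 meg-2* as red circles, wild-type library A as filled blue squares and wild-type library B as open blue squares. *fat-1* and the maternal list lie above both wild-type libraries, *fat-5* and the muscle list lie below both, and wild-type library A is higher than B for the intestine, epidermis and muscle lists. Most of the epidermis sum is *sqt-3*.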

How the data were processed

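The authors removed rRNA, sequenced stranded libraries, used HISAT2 for alignment to ce10, HTSeq-count for gene counts and DESeq2 for the comparison (versions not given in the sources used here). The signal that the authors deposited, in fpm, is a mean over the 2 libraries of a genotype. The read counts in it are scaled by size factors and by the geometric mean of all library sizes. The deposited FPKM columns are fpm divided by the deposited gene length, which is in bp, and are therefore smaller than usual FPKM. The gene length matched the annotated coding length for all members except *elo-5* (861 against 825 bp). The log2 fold changes and adjusted p-values that the authors deposited were not used.

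The reads of each library were worked out from these means. A mean is the average over both libraries of whole reads times the fpm of 1 read in its library, and 1 such pair of read numbers was found for 100% of wild-type and 99.998% of *meg-1 meg-2* values. Size factors recomputed from the recovered reads gave the same fpm per read. Library A of *meg-1 meg-2* had 22816733 reads on genes and library B had 20662429, against 24894414 for wild-type A and 26017429 for wild-type B. A count of 0 allows 3 reads, from 0.114 to 0.149 fpm. These limits and the counting intervals (exact, 95%) cover counting error only. Columns carry no replicate number, and the spread between replicates may include technical differences.

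Genes with a mean of at least 1 fpm were tested with limma 3.58.1 (R 4.3.3) on log2(fpm + 0.5), with lmFit, eBayes and its mean trend, genotype as the only term, and Benjamini-Hochberg adjustment over all 12734 genes. Fold changes are on this scale, which understates those of low genes. edgeR 4.0.16 (quasi-likelihood) and DESeq2 1.42.0 on recovered reads were alternatives, beside pseudocounts of 0.1 and 2 fpm, no filter (genes with at least 1 read) or one at 5 fpm, the FPKM scale, TMM scaling, quantile normalisation, no trend, robust variances, protein-coding genes alone, other call rules and each library left out. Scripts were tested on simulated data.

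Named genes were all members, the targeted genes and up to 3 called genes per direction in each list. *fasn-1*, *pod-2*, *mdt-15*, *acs-1* and *sqt-3* are exceptions, chosen after their values were seen. The members and lists were chosen with earlier results of these data known. Of 42048 identifiers, 41759 matched the WBcel235 annotation, which gave positions. No ce10 coordinate was used. *acl-10*, in the phospholipid list, was not matched.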

Additional observations from a re-analysis of the deposited data

How the results depend on the processing

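No paired analysis was possible because no replicate number can be attached to the libraries behind the means. Of 104 values of single desaturase or elongase genes under other settings, 98 kept their direction and side of the threshold and 6 lost their call, all of them of *fat-1* or *fat-5*. With 1 library left out, 29 of 36 values did so, 5 lost their call, *fat-6* gained one and *elo-5* changed sign, with log2 fold changes from −0.19 to 0.0028, the highest being that without *meg-1 meg-2* library B. A fit without a library leaves 1 sample in a genotype, which is assumed to vary like the others. The count of genes called higher was 687 in the main analysis, 3 with no filter, 256 on the FPKM scale, 403 with TMM scaling, 403 in edgeR, 439 in DESeq2 and 1760 with no minimum fold, and from 27 to 1338 with 1 library left out. The count of genes called lower was 367 in the main analysis, 145 with a pseudocount of 2 fpm, 1 with no filter, 212 with a minimum of 5 fpm, 165 on the FPKM scale and 998 with no minimum fold, and from 14 to 1291 with 1 library left out. Of the set, 0 genes were called higher with no filter, TMM scaling, quantile normalisation or edgeR, and from 0 to 1 with 1 library left out. Of the set, 0 were called lower with no filter, a minimum of 5 fpm, the FPKM scale or DESeq2 (which gave *fat-5* no adjusted *P*), and from 0 to 2 with 1 library left out. The causes of these shifts were not tested. Depth limits *fat-7* and *elo-5*, which had at most 43 reads in a library.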
